A study of Mus musculus with 24 samples.

Results

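Sox genes encode transcription factors that bind DNA through a shared HMG box, and the 10 described here were followed in the mouse otocyst, the epithelial vesicle that forms the inner ear. They were chosen by name: Sox2 and Sox3 of subgroup B1, Sox21 of B2, Sox4, Sox11 and Sox12 of C, Sox13 of D, and Sox8, Sox9 and Sox10 of E. All 10 were found among the 15736 genes of the count table, which holds 18 Sox-named genes in all. RNA was sequenced from dissected otocyst epithelium, pooled by genotype within a litter, so each pool stands for the embryos of 1 pregnant female. Control pools (con) were Rosa26rtTA/+, and experimental pools (R2b) were Rosa26rtTA/+;Tg(tetO-s(dn)Fgfr2b)/+, so both genotypes carried 1 Rosa26rtTA allele and both met doxycycline. The rtTA activator is made from the broadly active Rosa26 locus, and with doxycycline it switches on the tetO transgene, a soluble receptor ectodomain that captures FGFR2b ligands outside the cells that make it. Females were injected with 1.5 mg/kg doxycycline and then fed chow with 200 mg/kg, from E9.75 for 12 hours, from E9.25 for 24 hours or from E10.25 for 24 hours. The first 2 exposures end at E10.25 and the third at E11.25. They gave 3, 4 and 4 usable litters, each with a con and an R2b pool, which makes 22 libraries.

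FGF ligands that act through FGFR2b, such as FGF3 and FGF10, reach the otic placode and otocyst from the hindbrain and from the epithelium itself, and they shape its patterning and its neurons. Among the Sox factors, Sox2 marks the neurosensory domain and is needed for sensory patches, Sox4 and Sox11 act in the differentiation of neurons, and Sox8, Sox9 and Sox10 are expressed in the otic epithelium from early stages and also in neural crest cells. The comparison asked how each Sox transcript differed between R2b and con pools under each exposure.

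Libraries held 18.7 to 28.2 M counts. Values are counts per M counts of the library (CPM), scaled by trimmed mean of M-values factors within an exposure. The transgene adds reads to Fgfr2 and to Ighg1, the immunoglobulin heavy chain gene whose sequence the construct carries, and these checked the labels. For E9.75+12h, Fgfr2 was 146 to 159 CPM in con pools against 729 to 1550 CPM in R2b pools, and for E9.25+24h it was 127 to 154 against 1320 to 1920 CPM. The two-sided exact permutation p was 0.1 and 0.0286. These are the smallest that 3 and 4 pools a group can give when pools are exchanged without regard to litter. In the latest exposure the groups overlapped (exact permutation p = 0.171). The library labelled con of litter 1 held 703 CPM of Ighg1 and the library labelled R2b of that litter 56.3 CPM, and the library labelled con of litter 3 held 206 CPM, where the other con pools held 0.758 and 1.45 CPM. The E10.25+24h results below therefore rest on labels that the transgene reads go against in these libraries, and values without litter 1, or without litters 1 and 3, are given beside the con levels, the Sox fold changes and the contrast between exposures. The otic markers Pax2, Oc90, Epcam, Cdh1, Dlx5, Lmx1a, Gata3 and Tbx2 were all present, with a summed level of 1810 to 7930 CPM over all libraries.

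In con pools the 10 genes spanned a wide range of levels. Per kilobase of exon, Sox10 was highest in each exposure, at 195 ± 12.2 CPM per kb (SD, n = 3) at E9.75+12h, 95.1 ± 16.6 (n = 4) at E9.25+24h and 144 ± 17 (n = 4) at E10.25+24h. Sox4 came next at 138 ± 12.3, 84.6 ± 6.98 and 122 ± 16.4 CPM per kb, and its pools overlapped those of Sox10 at E9.25+24h and E10.25+24h but not at E9.75+12h. Sox9, a regulator of otic invagination and later of cartilage, and Sox12 followed at 95.3 ± 17 and 94.7 ± 7.68 CPM per kb at E9.75+12h, with overlapping pools. Sox2 was 54.3 ± 4.7 CPM per kb there, apart from its neighbours, and at E9.25+24h its pools overlapped those of Sox9 and Sox12. Sox13 and Sox11 were near 20 to 30 CPM per kb, in an order that did not hold across exposures, with 29.6 ± 1.38 against 20.5 ± 3.11 at E9.75+12h and 20.5 ± 2.04 against 21.6 ± 2.17 at E10.25+24h. Sox21 and Sox8 were lower, between 3.06 ± 0.703 CPM per kb for Sox8 at E10.25+24h and 7.34 ± 1.11 for Sox21 in the same pools. Sox3 was lowest in every exposure, at 0.353 to 0.487 CPM per kb, which came from only 10 to 40 counts in a library. In the E10.25+24h con pools of litters 2 and 4 alone, Sox10 was 132 and 150 CPM per kb, Sox4 109 and 120, and Sox3 0.579 and 0.344, again the highest, the next and the lowest.

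**Figure D1:**
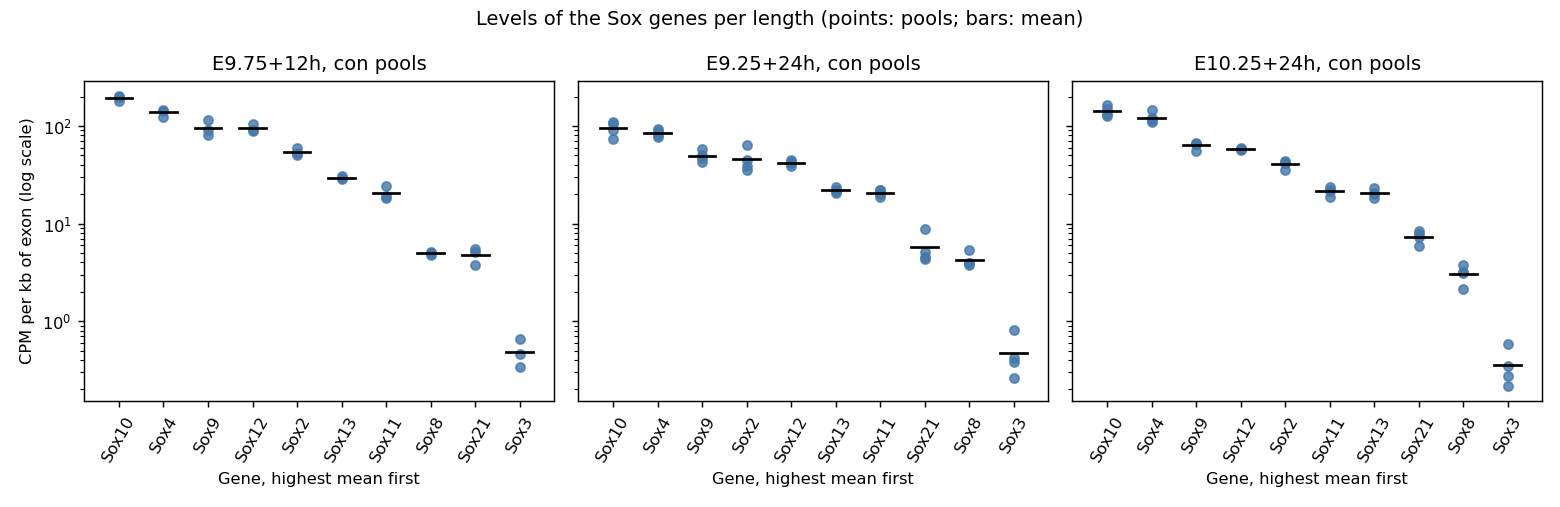
CPM per kb of exon (log axis) of each Sox gene in the con pools of the 3 exposures, ordered by mean; points are pools and bars are means. Sox10 and Sox4 lead in each panel, and Sox3 lies below 1 CPM per kb throughout.

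Several of these con levels differed between exposures that end at the same stage. With all 22 libraries on 1 scale, Sox10 was 574 to 656 CPM in con pools at E9.75+12h and 227 to 337 CPM at E9.25+24h. Sox12 was 415 to 482 against 173 to 202 CPM, Sox4 618 to 735 against 375 to 445 CPM, and Sox9 349 to 495 against 181 to 239 CPM. Sox13 was 127 to 140 against 88.6 to 103 CPM. Sox11, at 160 to 208 against 158 to 184 CPM, and Sox21, at 14.9 to 21.7 against 16.8 to 33.3 CPM, overlapped, as did Sox2, Sox3 and Sox8. The share of all genes whose con pools did not overlap between these exposures is not given here, so the Sox genes cannot be set against it. The sample titles of each exposure carry their own number prefix, whose meaning the labels do not give, so exposure and whatever that prefix marks cannot be told apart, and R2b was compared with con only within an exposure.

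The genes also differ in structure and in what could share their reads. GENCODE M21 (GRCm38) gives Sox2, Sox3, Sox21, Sox4 and Sox11 a single exon in their coding transcript, Sox9 3 exons, and Sox13 up to 14. Sox2 lies inside Sox2ot on the same strand, and Sox21, Sox4 and Sox8 overlap a gene on the opposite strand that is in the count table (Gm4675, Gm26735 and 2810468N07Rik). The libraries are stranded, but whether counting used the strand is not given in the sources used here, so reads of these pairs may not be separable. The other members overlap no gene. Sox10 lies at chr15:79154908-79165240 on the minus strand, Sox12 at chr2:152393611-152398063 on the minus strand, Sox8 at chr17:25565892-25570686 on the minus strand and Sox2 at chr3:34650405-34652461 on the plus strand.

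The 250 bases before the RefSeq start (GRCm38.p6, read 5′ to 3′ on the gene's strand) are shown for 2 groups of members, to set the sequence next to the start beside the values that follow. Sox12 (chr2:152398047-152398296, minus strand) and Sox8 (chr17:25570687-25570936, minus strand) passed a test with all litters, by group means or with litter as a block. Sox2 (chr3:34649745-34649994, plus strand) and Sox21 (chr14:118237031-118237280, minus strand) hold an ETS core. In alternative fits Sox2 also passed in 1 of 19 settings at E9.75+12h, and Sox13, not shown, in 1 of 23 at E9.25+24h. ETS factors are transcriptional effectors of FGF signalling, and the letters CCGGAA were searched on both strands and are in capitals where found.
Sox12: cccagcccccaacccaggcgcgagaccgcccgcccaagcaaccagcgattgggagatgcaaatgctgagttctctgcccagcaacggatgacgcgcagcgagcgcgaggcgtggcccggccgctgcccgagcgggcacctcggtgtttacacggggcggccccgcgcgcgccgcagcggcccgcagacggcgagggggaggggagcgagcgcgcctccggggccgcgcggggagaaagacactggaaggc
Sox8: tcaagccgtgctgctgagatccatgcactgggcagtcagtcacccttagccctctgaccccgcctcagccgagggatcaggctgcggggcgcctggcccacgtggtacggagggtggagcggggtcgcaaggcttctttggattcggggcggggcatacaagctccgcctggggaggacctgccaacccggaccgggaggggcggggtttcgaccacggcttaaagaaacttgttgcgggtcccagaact
Sox2: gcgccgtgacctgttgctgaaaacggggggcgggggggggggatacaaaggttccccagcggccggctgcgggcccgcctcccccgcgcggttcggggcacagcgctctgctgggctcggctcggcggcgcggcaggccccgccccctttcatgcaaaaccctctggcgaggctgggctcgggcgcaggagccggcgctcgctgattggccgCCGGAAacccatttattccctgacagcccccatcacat
Sox21: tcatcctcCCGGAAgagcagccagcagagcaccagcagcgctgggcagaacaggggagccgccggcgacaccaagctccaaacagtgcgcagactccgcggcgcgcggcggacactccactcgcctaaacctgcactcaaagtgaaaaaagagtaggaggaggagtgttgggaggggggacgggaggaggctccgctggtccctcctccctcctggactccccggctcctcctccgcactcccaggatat
Of 10 members, 7 had a promoter entry; Sox3, Sox9 and Sox10 did not. The ETS letters began 38 bases before the start in Sox2 and 242 bases before it in Sox21, and 5 of the 7 windows held none. Over all 32851 RefSeq promoter windows of the same length, 12.0% held them. The SOX letters AACAAT or AACAAA were in 24.9% of all windows and in 0 of the 7. A match is a string of letters and not a bound site.

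At E9.75+12h, 2 of the 10 Sox genes rose in R2b pools, Sox10 and Sox12, and none fell; 20.0% of the 14882 genes tested were called in that exposure (2973, of which 1518 were higher and 1455 lower). A gene is called where the Benjamini-Hochberg adjusted p of edgeR's quasi-likelihood test over all genes tested was under 0.05. The median log2 fold change of the 10 was 0.068, beside 0.011 over all genes tested. At 2 of 10 the share called was that of the background.

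Sox10, which is expressed across the otic epithelium and in neural crest and its glia, was 554, 603 and 626 CPM in the con pools of litters 1 to 3 and 912, 744 and 887 CPM in the R2b pools. The groups did not overlap, and the R2b pool was the higher in all 3 litters. The rise was 1.43-fold (log2 fold change 0.51, SE 0.11, edgeR adjusted p = 0.00772), and with litter as a block it was the 1 of 10 called (edgeR adjusted p = 0.0267), where 11.9% of all genes were. Without litter 1 the log2 fold change was 0.40 and was no longer called (edgeR adjusted p = 0.168, and 0.257 with the block); with the block the call was also lost without litter 3 (edgeR adjusted p = 0.0532). In pools of cells, more cells that express a gene and more RNA per cell cannot be told apart, here and for every gene below.

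Markers of neural crest and glia stood higher in the same R2b pools, and their part in the Sox10 rise was not tested. The summed level of the 6 of 9 listed markers in the table was 631 to 649 CPM in con and 808 to 859 CPM in R2b pools, without overlap. Of the 5 tested, 3 rose, among them Gfra3, a GDNF family receptor, from 22 ± 5.05 to 51.1 ± 7.34 CPM (n = 3), and Ednrb, an endothelin receptor, from 17.7 ± 2.65 to 26.1 ± 2.11 CPM. With litter as a block 2 of the 5 were called, and Ednrb was not (edgeR adjusted p = 0.0643). Over all genes 20.0% were called in this exposure by group means and 11.9% with the block. Erbb3, which makes up most of the sum, was 533 ± 15.9 in con and 629 ± 47.8 CPM in R2b (edgeR adjusted p = 0.0933). Fabp7 was below 1 CPM in every pool there, and Foxd3 and Cdh19 were not analysed here. Markers of the otic epithelium itself moved as well, where 20.0% of all genes were called by group means. Of the 8, 4 rose, among them Pax2 by 1.71-fold and Lmx1a by 1.44-fold, and Epcam fell to 0.809 of its con level. With the block Epcam was not called (edgeR adjusted p = 0.0808). Their sum overlapped, at 2870 to 3230 CPM in con and 3210 to 4300 CPM in R2b pools, and their part in the Sox10 and Sox12 values was not tested.

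Sox12, a SoxC gene, was 400, 404 and 461 CPM in con pools and 542, 491 and 548 CPM in R2b pools. The groups did not overlap and the R2b pool was higher in all 3 litters. The rise was 1.25-fold (log2 fold change 0.32, SE 0.10, edgeR adjusted p = 0.0391). With litter as a block the log2 fold change was the same and the call was lost (edgeR adjusted p = 0.0727), as it was without litter 1 (0.26, edgeR adjusted p = 0.345), without litter 3 (0.36, edgeR adjusted p = 0.113) and without the con pool of litter 2 (0.29, edgeR adjusted p = 0.141).

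**Figure D2:**
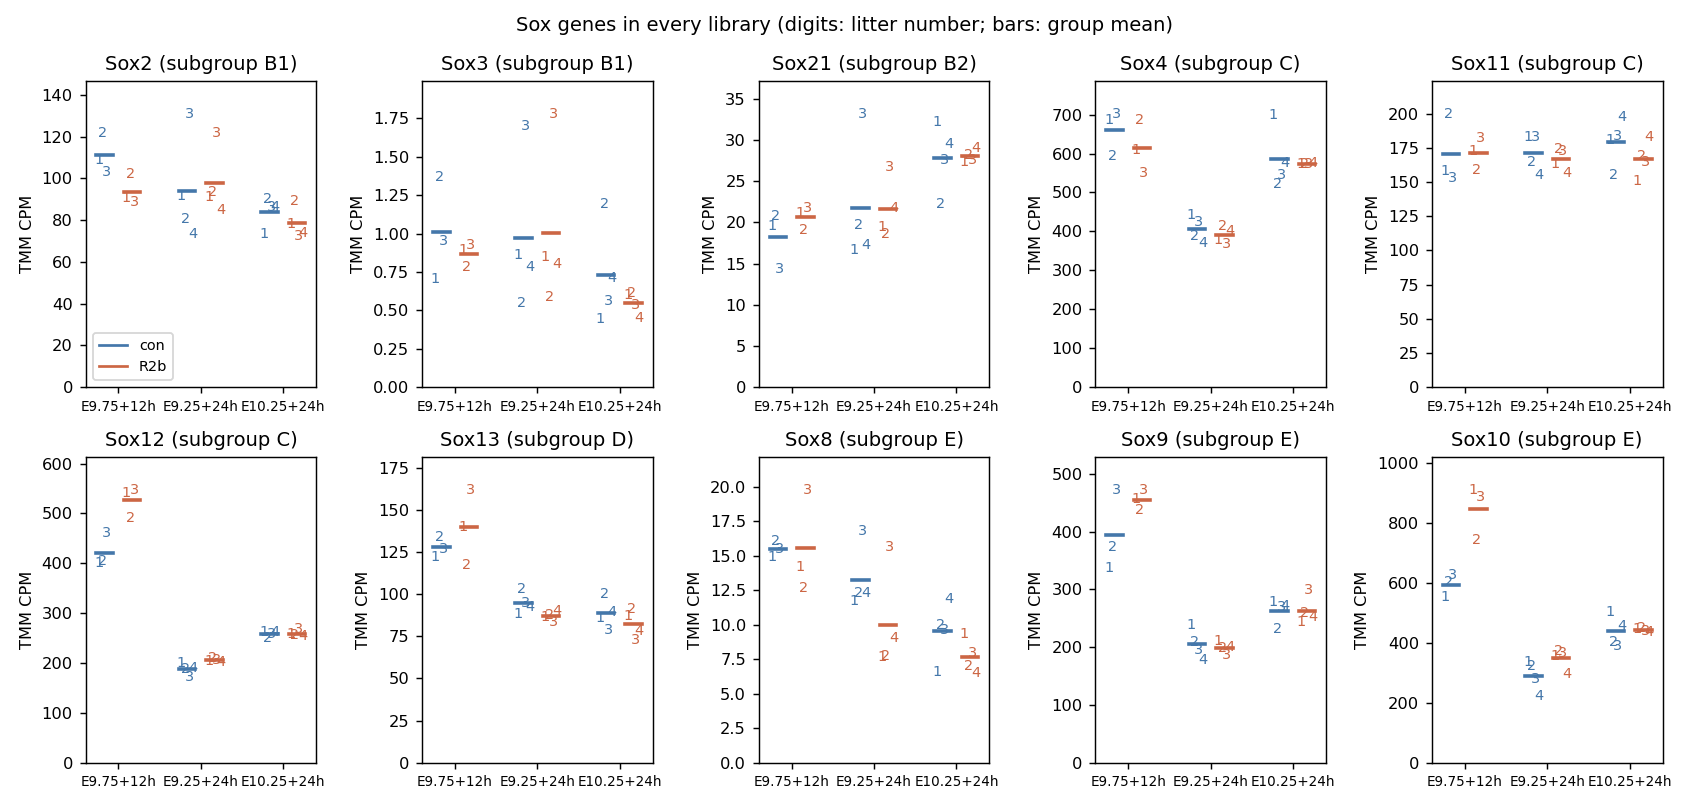
TMM CPM of each Sox gene (vertical axis, from 0) in every library, by exposure; blue is con, orange is R2b, digits are litter numbers and bars are group means. At E9.75+12h the Sox10 and Sox12 digits of R2b lie above all con digits, and at E9.25+24h litter 3 stands high in both genotypes for Sox2, Sox3, Sox21 and Sox8. Values are scaled within an exposure, so levels are compared within a panel's exposure only.

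Sox2, the B1 gene of the neurosensory domain, was 109, 122 and 103 CPM in con and 90.6, 102 and 88.7 CPM in R2b pools at E9.75+12h. The R2b pool was the lower in all 3 litters and the groups did not overlap, but the difference did not pass over all genes (log2 fold change -0.25, 95% interval -0.476 to -0.026, edgeR adjusted p = 0.106). Sox9 was higher in R2b in litters 1 and 2 and equal in litter 3, at 337, 374 and 473 CPM in con and 456, 437 and 473 CPM in R2b (log2 fold change 0.21, edgeR adjusted p = 0.25). Sox13, the SoxD member, was 122 to 134 CPM in con and 117 to 162 CPM in R2b, and Sox21 14.3 to 20.8 against 19.1 to 21.8 CPM, with overlapping pools. Sox4 and Sox11 overlapped too, at 593 to 702 against 551 to 686 CPM and 153 to 200 against 159 to 182 CPM. Their 95% intervals were -0.345 to 0.141 and -0.243 to 0.263 on the log2 scale. Sox8 was 14.9 to 16.1 CPM in con and 12.7 to 19.8 CPM in R2b, and Sox3 0.706 to 1.37 against 0.783 to 0.928 CPM.

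At E9.25+24h no Sox gene passed the edgeR test of group means; 15.6% of the 14979 genes tested were called (2335, of which 1362 were higher). DESeq2 called 0 of the 10 as well, and 1 of the 10, Sox12, had an unadjusted p under 0.05. The pools of a litter deviated together in this exposure, with a correlation across genes of 0.42 to 0.77 between the con and R2b pool of a litter. With litter as a block, Sox10 and Sox12 rose and Sox8 fell, 3 of 10, where 40.6% of all genes tested were called (6086), so the share was again no higher than the background.

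Sox10 was 335, 322, 280 and 223 CPM in the con pools of litters 1 to 4 and 355, 373, 367 and 298 CPM in the R2b pools. The groups overlapped, but the R2b pool was higher in all 4 litters, by 0.08 to 0.42 on the log2 scale. The log2 fold change was 0.26 by group means (SE 0.13, edgeR adjusted p = 0.183) and 0.27 within litters (SE 0.053, edgeR adjusted p = 0.00241). The crest and glia markers overlapped in sum, at 473 to 746 CPM in con and 658 to 868 CPM in R2b. Of the 6 tested, 3 rose by group means and 4 with the block, where 15.6% and 40.6% of all genes were called. Gfra3 rose by group means from 15.6 ± 2.22 to 57.7 ± 5.28 CPM (n = 4). Erbb3, which makes up most of the sum, was 546 ± 114 in con and 572 ± 78 CPM in R2b (edgeR adjusted p = 0.807). Of the 8 otic epithelium markers 3 rose by group means and 5 with the block, Pax2 by 1.56-fold, beside 15.6% and 40.6% of all genes called. Epcam, Gata3 and Tbx2 were called in neither fit (log2 fold changes 0.017, -0.040 and -0.13 by group means). The 8 markers summed to 1810 to 3270 CPM in con and 2880 to 4970 CPM in R2b pools. The part of both marker lists in the Sox10, Sox12 and Sox8 values was not tested.

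Sox12 was 201, 188, 172 and 191 CPM in con and 204, 211, 206 and 202 CPM in R2b pools. The groups did not overlap, and the step from the highest con pool to the lowest R2b pool was 201 to 202 CPM. Within litters the log2 fold change was 0.13 (SE 0.041, edgeR adjusted p = 0.0282), and by group means the same value was not called (edgeR adjusted p = 0.114). The within-litter call was lost without litter 2 or litter 3 (edgeR adjusted p = 0.0784 and 0.147).

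Sox8, a low SoxE gene, was 11.7, 12.3, 16.8 and 12.3 CPM in con and 7.68, 7.75, 15.6 and 9.05 CPM in R2b pools. R2b was lower in all 4 litters, by 0.60, 0.66, 0.11 and 0.43 on the log2 scale, and litter 3 was highest in both genotypes. The log2 fold change was -0.44 within litters (SE 0.10, edgeR adjusted p = 0.00783) and -0.40 by group means (SE 0.24, edgeR adjusted p = 0.283). Within litters the call was lost without litter 2 (edgeR adjusted p = 0.0599). Without litter 3 it was -0.57 by group means and was called (edgeR adjusted p = 0.0388). So the SoxE genes did not go one way: Sox10 rose and Sox8 fell within litters, and Sox9, at 178 to 238 CPM in con and 186 to 210 CPM in R2b, did not pass (log2 fold change -0.040, 95% interval -0.152 to 0.072 with the block).

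The remaining members did not pass in either fit. Sox13 was lower in R2b in all 4 litters, at 88.1 to 103 CPM in con and 83.7 to 90.1 CPM in R2b (log2 fold change -0.12, edgeR adjusted p = 0.0515 with the block). Sox2 was 91.4, 80.8, 131 and 73.4 CPM in con and 91.3, 93.6, 122 and 84.8 CPM in R2b, higher in 2 litters and lower in 2. Sox2, Sox3 and Sox21 were highest in litter 3 in both genotypes, with Sox21 at 33.2 and 26.7 CPM there against 16.7 to 21.8 CPM in the other litters. Mesenchyme markers were lowest in that litter, at 37.5 and 58.1 CPM in sum, and highest in litter 4, at 1230 and 1140 CPM; their part was not tested. Without litter 4 the block called 5 of 10, adding Sox13 (log2 fold change -0.15, edgeR adjusted p = 0.0265) and Sox9 (-0.11, edgeR adjusted p = 0.0342). The share of all genes called in that fit is not given here, so the 5 cannot be set against it. With all litters the block called 40.6% of all genes.

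**Figure D3:**
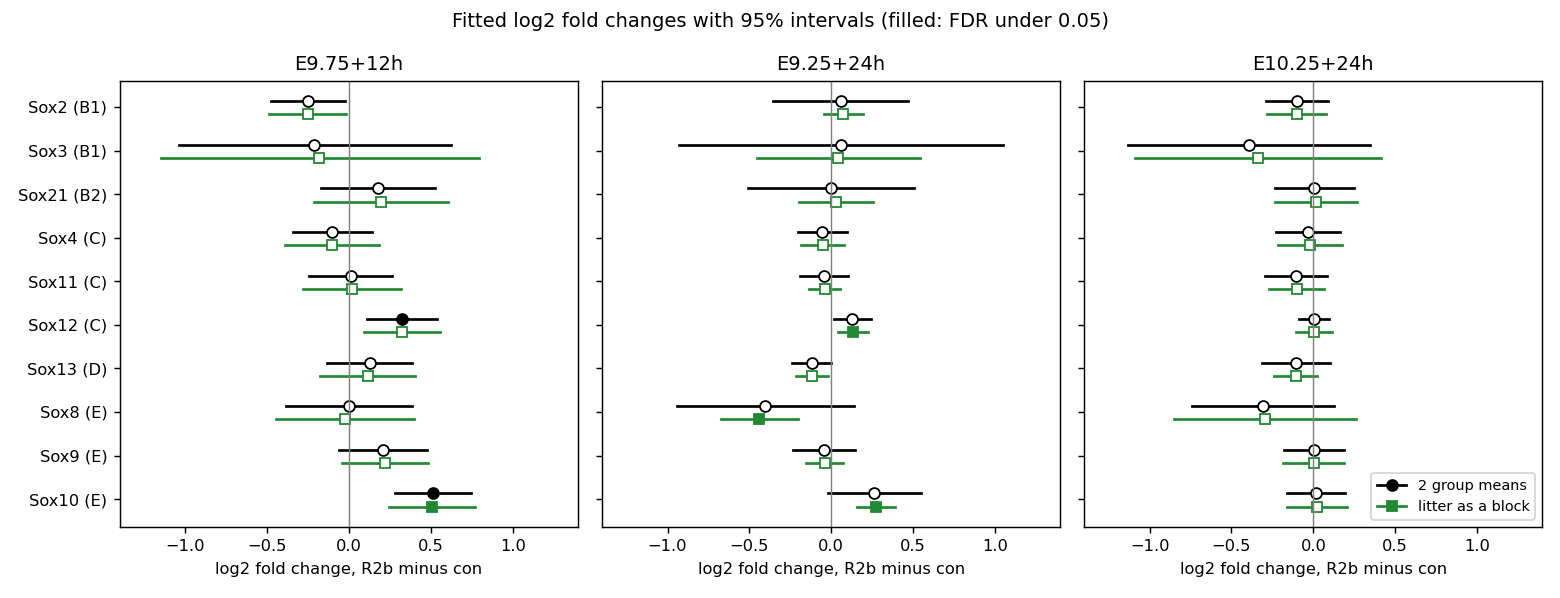
Fitted log2 fold change, R2b minus con, of each Sox gene in the 3 exposures, with 95% intervals; black circles are fits of group means, green squares fits with litter as a block, and filled symbols have an edgeR adjusted p under 0.05. Sox10 is filled in both fits at E9.75+12h, and the block narrows the intervals of Sox8, Sox10 and Sox12 at E9.25+24h.

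In the E10.25+24h pools none of the 10 was called by edgeR or by DESeq2, and none had an unadjusted p under 0.05; 0% of 15203 genes tested were called, and 175 had an unadjusted p under 0.05. Sox10 was 503, 403, 391 and 456 CPM in pools labelled con and 445, 451, 441 and 437 CPM in pools labelled R2b (log2 fold change 0.016, 95% interval -0.163 to 0.196). Sox12 was 250 to 263 against 255 to 268 CPM, with the narrowest interval of the 10 (-0.0897 to 0.0985). Sox2 was 73.6, 90, 86.3 and 86.5 CPM against 78.3, 89.2, 72.5 and 73.9 CPM, lower in the library labelled R2b in 3 of 4 litters (log2 fold change -0.10, 95% interval -0.292 to 0.0916). Sox4, Sox9, Sox11, Sox13 and Sox21 had log2 fold changes between -0.11 and 0.007, and Sox3 was -0.39 with an interval of -1.13 to 0.348.

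The values of Sox8 and Sox3 moved most when litter 1 was left out. Sox8 was 6.6, 10, 9.63 and 11.9 CPM in pools labelled con and 9.32, 7, 7.93 and 6.5 CPM in those labelled R2b, higher in the R2b label in litter 1 and lower in the other 3. The log2 fold change was -0.31 with all litters, -0.55 without litter 1 (edgeR adjusted p = 0.148) and -0.69 without litters 1 and 3 (edgeR adjusted p = 0.325). Sox3 went from -0.39 to -0.61 without litter 1 (edgeR adjusted p = 0.466) and -0.83 without litters 1 and 3 (edgeR adjusted p = 0.555). Leaving out litter 1 left Sox10 at 0.093, Sox12 at 0.018, Sox2 at -0.15, Sox4 at 0.073, Sox9 at 0.076, Sox11 at -0.050, Sox13 at -0.14 and Sox21 at 0.10, with 0 of 10 called by group means, where 0% of all genes were called. With the block and without litter 1, 0 of 10 were called where 4.04% of all genes were (614). Without litters 1 and 3, 0 of 10 were called by group means, where 0.0329% of all genes were (5). The log2 fold changes then were 0.058 for Sox10, 0.0032 for Sox12, -0.11 for Sox2, 0.074 for Sox4, 0.035 for Sox9, 0.0036 for Sox11, -0.15 for Sox13 and 0.15 for Sox21.

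**Figure D4:**
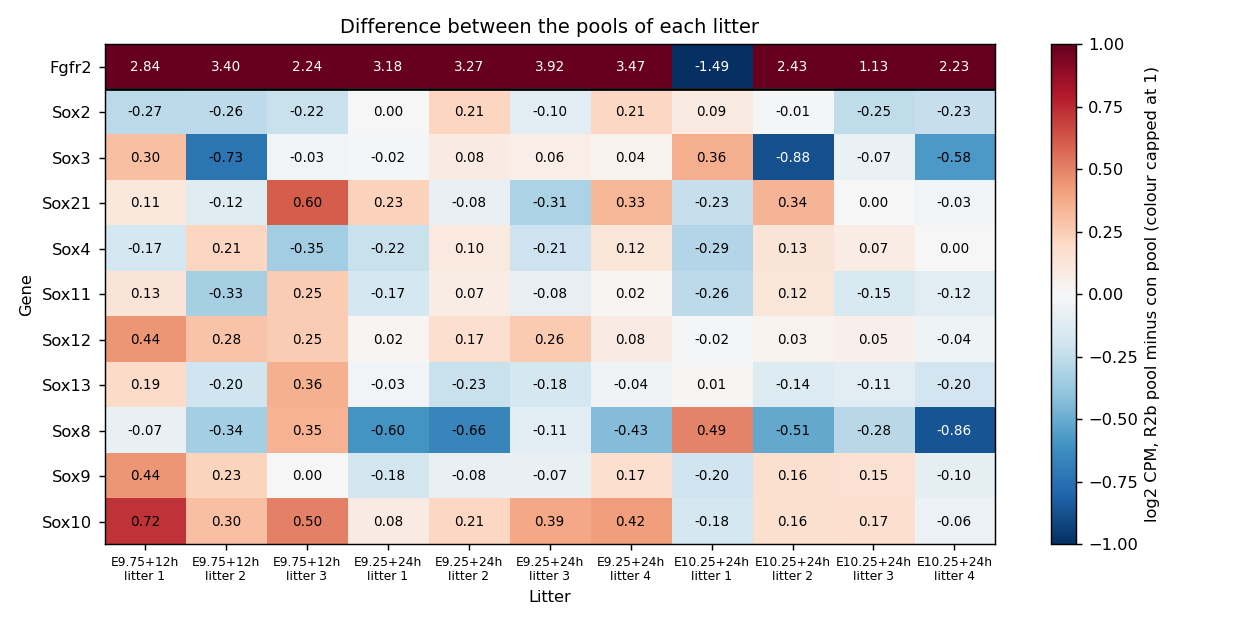
Difference in log2 CPM between the R2b and the con pool of each litter, for Fgfr2, which carries transgene reads, and the 10 Sox genes; red is higher in R2b, blue lower, colour capped at 1. Litter 1 at E10.25+24h is the 1 litter with a negative Fgfr2 value, -1.49, and its Sox8 value, 0.49, has the opposite sign to those of the other 3 litters. The same holds for its values of Sox2, Sox3, Sox4 and Sox13.

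Whether the exposures differed in their effect was tested as a contrast of all 22 libraries. For E9.25+24h against E9.75+12h, 0 of 10 members differed by edgeR, with 1 unadjusted p under 0.05, and 0% of 15688 genes were called; DESeq2 called 0 of 10. For E10.25+24h against E9.25+24h, 0 of 10 differed, with 0 unadjusted p under 0.05, and again 0% of 15688 genes were called. These contrasts share the E9.25+24h libraries. The difference for Sox10 was -0.23 on the log2 scale (95% interval -0.564 to 0.105) between the earlier exposures and -0.25 (-0.56 to 0.0604) to the latest one; the latter was -0.18 without litter 1 of E10.25+24h and -0.22 without its litters 1 and 3. Leaving out these 2 litters, again 0 of 10 members differed, and 0% of 15707 genes. For Sox12 it was -0.18 (-0.35 to -0.0021, edgeR adjusted p = 0.406). The effects of Sox2, -0.25 and 0.058, differed by 0.33 (-0.12 to 0.775).

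Of the Sox genes outside the 10, Sox6 rose in both exposures that end at E10.25. Of 10 others looked for, 7 were in the table, and Sox14, Sox15 and Sry were not analysed here. By group means Sox6 was the 1 called of 5 tested at E9.75+12h and the 1 called of 4 tested at E9.25+24h. Over all genes 20.0% and 15.6% were called in these exposures. Sox6, a SoxD gene like Sox13, was 58.5, 45.8 and 55.1 CPM in con and 80.1, 85.2 and 81 CPM in R2b pools under the first exposure, and 52.7, 54.5, 39.8 and 55.6 against 70.2, 83.4, 65.5 and 77.9 CPM under the second. The groups did not overlap in either exposure. The rise was 1.54-fold (log2 fold change 0.63, SE 0.11, edgeR adjusted p = 0.00363) and 1.46-fold (0.55, SE 0.12, edgeR adjusted p = 0.0169). At E9.75+12h the call was lost without litter 1 in the block fit (edgeR adjusted p = 0.0761). At E9.25+24h it was not called without litter 1 (edgeR adjusted p = 0.0908) or litter 2 (edgeR adjusted p = 0.0901), or without the R2b pool of litter 2 (edgeR adjusted p = 0.0543). At E10.25+24h Sox6 was 0.20 with all litters, 0.36 without litter 1 (edgeR adjusted p = 0.155) and 0.49 without litters 1 and 3 (edgeR adjusted p = 0.247). Sox5, the third SoxD gene, was lower in R2b in all 3 litters at E9.75+12h, at 72.7 to 80.5 CPM in con and 62.7 to 71.2 CPM in R2b (log2 fold change -0.18, edgeR adjusted p = 0.212). The SoxF genes Sox7, Sox17 and Sox18, which are endothelial, were low. At E9.25+24h both pools of litter 4 stood high: Sox18 was 8.16 and 4.55 CPM in the con and R2b pools of litter 4 and at most 1.2 CPM in the others, and endothelial markers summed to 236 and 106 CPM in those pools and at most 37.9 CPM in the others. The pools of a litter did not go together at E9.75+12h, where Sox18 was 0.303, 0.0546 and 1.95 CPM in con and 0.722, 0.94 and 0.361 CPM in R2b pools. Sox30 was 0.402 ± 0.0197 CPM in con pools at E9.75+12h and 0.968 ± 0.237 CPM in the R2b pools (n = 3, edgeR adjusted p = 0.0505), and Sox1 was under 1 CPM in each exposure's con pools.

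Genes that work with these factors were followed as 3 lists, beside called shares over all genes of 20.0% in the 12-hour exposure and 15.6% under E9.25+24h by group means, and 11.9% and 40.6% with the block. Of 9 cartilage-type matrix genes linked to the SoxE group, 7 rose and 1 fell at E9.75+12h and 6 rose at E9.25+24h, with median log2 fold changes of 0.557 and 0.522. With the block 7 rose and 1 fell in the former and 8 rose and 1 fell in the latter. Col11a1, a fibrillar collagen chain, rose from 404 ± 6.5 to 595 ± 20.7 CPM (n = 3) and from 404 ± 32.2 to 906 ± 109 CPM (n = 4). Hapln1, which links hyaluronan to proteoglycans, rose from 42.9 ± 11.9 to 190 ± 31.4 CPM at E9.25+24h, and Matn1, a matrilin, from 2.88 ± 0.346 to 9.47 ± 0.135 CPM at E9.75+12h. Matn3, named after its value was seen because it was the only member of that list called lower, went from 1.48 ± 0.306 to 0.455 ± 0.139 CPM. Mesenchyme markers, of which 0 of 8 were called in either exposure, overlapped between genotypes in their sum, at 75.2 to 323 against 137 to 314 CPM for E9.75+12h.

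Of 12 neuronal genes linked to the SoxC group, 6 rose at E9.75+12h by edgeR's group means, with a median log2 fold change of 0.626. Under E9.25+24h 0 were called by group means (2 had an unadjusted p under 0.05), with a median of -0.409. With the block 1 rose and 3 fell in that exposure, and the median was -0.252. Its highest con pool stood far above the con mean for Stmn2 (31.3 against 8.58 CPM) and Elavl3 (37.6 against 15.2 CPM). Tubb3, Dcx and Stmn2 had negative group-mean values there, although R2b was higher in 3 of 4 litters. Isl1, Tead2, Elavl3 and Elavl4 were lower in R2b in all 4 litters. With the block 5 rose at E9.75+12h. Neurog1, which starts otic neurogenesis, rose there from 27 ± 0.747 to 46.5 ± 4.65 CPM (n = 3). Tubb3, a neuronal tubulin, rose from 67.3 ± 13.5 to 136 ± 17.2 CPM, and Dcx, a microtubule protein of young neurons, from 47 ± 1.35 to 72.5 ± 8.11 CPM. Of the SoxC genes themselves, Sox12 rose by group means (edgeR adjusted p = 0.0391) but was not called with the block (edgeR adjusted p = 0.0727). Sox4 and Sox11 did not pass. The difference between the exposures was not tested for this list. Hindbrain markers summed to 219 to 248 CPM in con and 383 to 436 CPM in R2b pools there, mostly through Irx3 (218 ± 10.1 and 389 ± 29.6 CPM), and their part was not tested; Egr2, Olig2 and Olig3 were not analysed here. Of 11 prosensory genes linked to Sox2, 4 rose and 2 fell at E9.75+12h and 3 rose at E9.25+24h, with medians of 0.438 and 0.204. With the block 4 rose and 1 fell at E9.75+12h, and 8 rose and 1 fell at E9.25+24h. Notch1 rose from 236 ± 20.1 to 358 ± 69.5 CPM and Lfng, which modifies Notch, from 157 ± 46.8 to 278 ± 35.8 CPM at E9.75+12h, and Jag1, a Notch ligand of sensory patches, from 242 ± 49.9 to 381 ± 36.5 CPM at E9.25+24h. Lin28b, an RNA-binding protein of progenitors, fell from 192 ± 25.1 to 105 ± 11.4 CPM in the former. At E10.25+24h none of the genes in the 3 lists was called, where 0% of all genes were. Without litter 1 and with the block, 3 of 9 matrix genes rose. Of 11 prosensory genes 2 rose and 1 fell, and 0 of 12 neuronal genes were called. In that fit 4.04% of all genes were called (614).

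Across libraries, once each was centred on its exposure, the Sox genes did not group by subgroup throughout. Over the 45 pairs of members, Pearson r of log2 CPM over 22 libraries was highest for Sox12 and Sox10, at 0.784, of subgroups C and E, and then for Sox2 and Sox3 of B1, at 0.751. The 7 pairs within a subgroup ran from -0.217 for Sox4 and Sox12 to that 0.751, and Sox2 and Sox12 gave the lowest value of all pairs, -0.465. These libraries share litters and genotypes, so r describes both together. Among 10211 other genes with a mean of at least 10 CPM, the pattern nearest to that of Sox10 was Llgl2 (r = 0.95), then Hpn (r = 0.946), and the nearest to Sox12 was Jup (r = 0.959), then Rcn3 (r = 0.921). Sox2 lay nearest to Slc35g1 (r = 0.846) and Stk39 (r = 0.842), Sox3 to Prtg (r = 0.853) and Tbcb (r = 0.848), and Sox8 to Rnf44 (r = 0.884) and Gcat (r = 0.835). For the others the nearest gene was Fhod3 for Sox21 (r = 0.76), Nek1 for Sox4 (r = 0.795), Taf8 for Sox11 (r = 0.738), Zfp687 for Sox13 (r = 0.811) and Zfp532 for Sox9 (r = 0.73).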

How the data were processed

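RNA was read from 22 libraries of pooled otocyst epithelium; 2 of the 24 samples in the labels had no column, and 2 columns matched no sample and were not used. Per the labels' protocols, poly(A) RNA was selected by oligo(dT) and libraries were stranded; per the submitters' processing notes, reads were aligned with Novoalign 2.08.03 to mm10. The deposited values are whole-number counts per Ensembl gene by the authors; the counting tool, strand setting and annotation are not given in the sources used here. Symbols, positions and exon lengths came from GENCODE M21 on GRCm38, and 15522 of 15736 genes had a symbol. The Sox members, gene lists and comparisons were chosen with earlier results of these data known, so no list is independent support.

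In edgeR 4.0.16 (R 4.3.3), genes passed filterByExpr, TMM factors were set within an exposure, and R2b was compared with con by glmQLFit and glmQLFTest with 2 group means, a prior count of 0.125 and Benjamini-Hochberg adjustment over all genes tested. All 10 members passed the filter in each exposure. Log2 CPM for litters and correlations used a prior count of 2. DESeq2 1.42.0 was an alternative. The labels say each female gave a con and an R2b pool, so litter as a block was fitted too; the correlation of their deviations was between -0.26 and -0.12 in E9.75+12h litters, between 0.42 and 0.77 in E9.25+24h litters, and between -0.11 and 0.39 in E10.25+24h litters. The 2-group fit, with and without the block, and the contrast of 6 group means without it were run on simulated counts with known changes. Those counts held no litter effect, so they cannot show how the block handles such an effect. Genes named were the members, the other Sox genes in the table, up to 3 called genes per list and exposure by smallest adjusted p, and the nearest genes by r; some crest and glia markers are not reported here by name. Reads carry no molecular identifiers, and library totals of 18.7 to 28.2 M counts limit Sox3 in particular. Alternatives tried were size factors, filters, robust dispersion, a fit of all libraries, DESeq2, the block, and each litter or pool left out.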

Additional observations from a re-analysis of the deposited data

Results flagged for a closer look

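Of 40 groups of 4 pools tested over the 10 Sox genes, 1 had a pool far from the others, and chance flags about 1 in 20 such groups. In con pools at E9.25+24h, Sox8 was 16.8 CPM in litter 3 and 11.7 to 12.3 CPM in litters 1, 2 and 4, a gap of 0.875 of the group's range. The R2b pool of the same litter was 15.6 CPM, beside 7.68, 7.75 and 9.05 CPM in the other R2b pools.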

How the results depend on the processing

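The count of Sox genes called at E9.75+12h was 2 and became 1 with litter as a block (replicate block: Sox10 remained), and ran from 0 to 3 when a litter or pool was left out. At E9.25+24h it was 0, and 3 with the replicate block, and ran from 0 to 5 in the leave-one-out fits. The shares of all genes called in the leave-one-out fits of these 2 exposures are not given here. Size factors, filters, robust dispersion, DESeq2 and the fit of all libraries left the counts at 2 and 0. At E10.25+24h, and for both differences between exposures, the count was 0 under every alternative run. Over 917 values of the 10 members under alternatives, 882 kept direction and side of the threshold or stayed within 1 SE of 0, 17 became called, 12 lost a call and 6 reversed; 99 changed sign within 1 SE of 0. In the leave-one-out fits at E9.75+12h Sox21 ran from -0.015 to 0.34, Sox13 from -0.013 to 0.27 and Sox18 from -1.03 to 2.20; Tubb3 at E9.25+24h ran from -0.30 to 0.24 and Lfng at E10.25+24h from -0.17 to 0.75. Without litters 1 and 3, a setting chosen after seeing the data, Sox11 at E10.25+24h was 0.0036 on the log2 scale. The cause was not tested.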
